A study of Mus musculus with 10 samples.

Results

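Cell cycle genes were followed through 10 RNA-seq libraries of mouse peritoneal lavage cells, using 33 genes chosen by name for their part in DNA replication or mitosis. All 33 were found by gene name among the 34745 genes of the deposited table, and 12 were read as replication genes and 21 as mitosis genes. The cells were washed from the abdominal cavity of mice with sepsis from cecal ligation and puncture, a model in which gut contents leak into the peritoneum. The libraries carry the labels NC (NC 1 to NC 5) and AX (AX 6 to AX 10), 5 each. The study compares amlexanox, an anti-inflammatory inhibitor of the kinases TBK1 and IKKε, with vehicle, and the AX libraries were taken to be the amlexanox arm, though neither abbreviation is spelled out. No source used here gives strain, age, dose or the time of lavage, and all mice of both groups had the operation. Nothing says that each library came from a separate mouse, so p-values measure the spread between these libraries, which may be technical.

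A dividing cell first licenses its replication origins by loading the MCM helicase, then copies its DNA in S phase while ribonucleotide reductase and thymidylate synthase supply nucleotides. It then builds a spindle and separates its chromosomes in mitosis. Genes of the replication step are switched on mainly by E2F factors, and genes of mitosis mainly by the MuvB complexes with B-MYB and FOXM1. Mature neutrophils have left the cell cycle, while their bone marrow precursors, activated lymphocytes and resident macrophages can divide. A lavage can therefore mix resting and dividing cells.

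Promoter motifs were counted in the replication and the mitosis genes. Windows from 250 bases before to 50 after the start were taken from RefSeq (GRCm38.p6, which is mm10) and were found for 26 of the 33 genes, in 27 windows because Mcm7 has a pair of starts. The motifs, searched on both strands, were the E2F motif (written TTGGCGC, with variants TTCCCGC and also TTCGCGC and likewise TTGCCGC), the cell cycle homology region or CHR (TTTGAA or TTCGAA), to which MuvB binds, and the CCAAT box (CCAAT), which NF-Y binds. A CHR match lay in 12 of 16 mitosis windows and 2 of 11 replication windows, beside 19.2% of all 32851 windows. An E2F match lay in 7 of 11 replication windows and 3 of 16 mitosis windows, beside 9.57% of all windows. The CCAAT box was in 14 of 16 mitosis and 9 of 11 replication windows, beside 37.4%. E2F and CCAAT matches can share bases, as they do in at least 134 of all windows, a count that may leave out some arrangements of the variants. Matches describe these letters only and are no evidence of binding.

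The stretches below lie before the start and show examples of each arrangement, with matches in capitals and positions counted back from -1, the base before the RefSeq start. In the mitosis genes Cdc20, Top2a, Kif11 and Cdk1 a CHR stands near at least 1 CCAAT box; a match on the other strand reads TTCAAA for the CHR and ATTGG for the CCAAT box. Cdc20 has its CHR at -18 and a CCAAT box at -53, on chr4:118437353-118437443, minus strand. Another CCAAT box begins at -8, outside the stretch shown.
Cdc20: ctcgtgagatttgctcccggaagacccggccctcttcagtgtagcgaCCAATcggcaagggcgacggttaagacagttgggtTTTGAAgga
Top2a has CHR matches at -120 and -23, on chr11:99024190-99024309, minus strand. Further CHR matches begin at -179 and -140, outside the stretch shown.
Top2a: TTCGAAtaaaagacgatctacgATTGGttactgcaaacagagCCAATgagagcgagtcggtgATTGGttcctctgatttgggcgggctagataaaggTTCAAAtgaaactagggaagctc
Kif11 has its CHR at -19, on chr19:37376282-37376381, plus strand.
Kif11: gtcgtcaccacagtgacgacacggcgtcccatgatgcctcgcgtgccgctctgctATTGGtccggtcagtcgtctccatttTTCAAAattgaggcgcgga
Cdk1 has a CHR at -71 between CCAAT boxes at -80 and -48, on chr10:69352939-69353012, minus strand. Outside the stretch shown it also has a CHR at -15, a CCAAT box at -208 and E2F matches at -178 and -130.
Cdk1: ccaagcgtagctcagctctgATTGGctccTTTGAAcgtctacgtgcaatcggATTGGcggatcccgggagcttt
Ccnb2 holds 3 CCAAT boxes at -87, -54 and -21, on chr9:70421555-70421654, minus strand, and its nearest CHR match begins at base 5 after the start, as that of Plk1 begins at base 31.
Ccnb2: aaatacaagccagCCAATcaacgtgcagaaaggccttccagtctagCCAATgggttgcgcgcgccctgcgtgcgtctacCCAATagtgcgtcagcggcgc

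The replication genes Mcm6, Rrm1 and Mcm5 carry E2F matches and no CHR in their windows. In Mcm6, on chr1:128359706-128359825, minus strand, pairs of overlapping E2F matches begin at -109 and -46.
Mcm6: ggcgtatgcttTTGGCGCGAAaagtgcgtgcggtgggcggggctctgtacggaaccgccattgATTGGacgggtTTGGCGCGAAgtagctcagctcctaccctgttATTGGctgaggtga
Rrm1 has an E2F match at -67 between CCAAT boxes, on chr7:102441595-102441694, plus strand.
Rrm1: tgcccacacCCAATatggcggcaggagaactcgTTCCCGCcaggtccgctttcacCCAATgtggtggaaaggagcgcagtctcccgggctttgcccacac
Mcm5 has E2F matches at -164, -152 and -149, on chr8:75109339-75109508, plus strand.
Mcm5: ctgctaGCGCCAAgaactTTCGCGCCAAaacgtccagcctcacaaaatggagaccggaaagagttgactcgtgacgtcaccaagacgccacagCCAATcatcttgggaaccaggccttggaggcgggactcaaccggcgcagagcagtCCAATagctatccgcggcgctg
No motif of the 3 was found in the windows of Tyms, Ccne1, Birc5 or Nusap1.

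**Figure D1:**
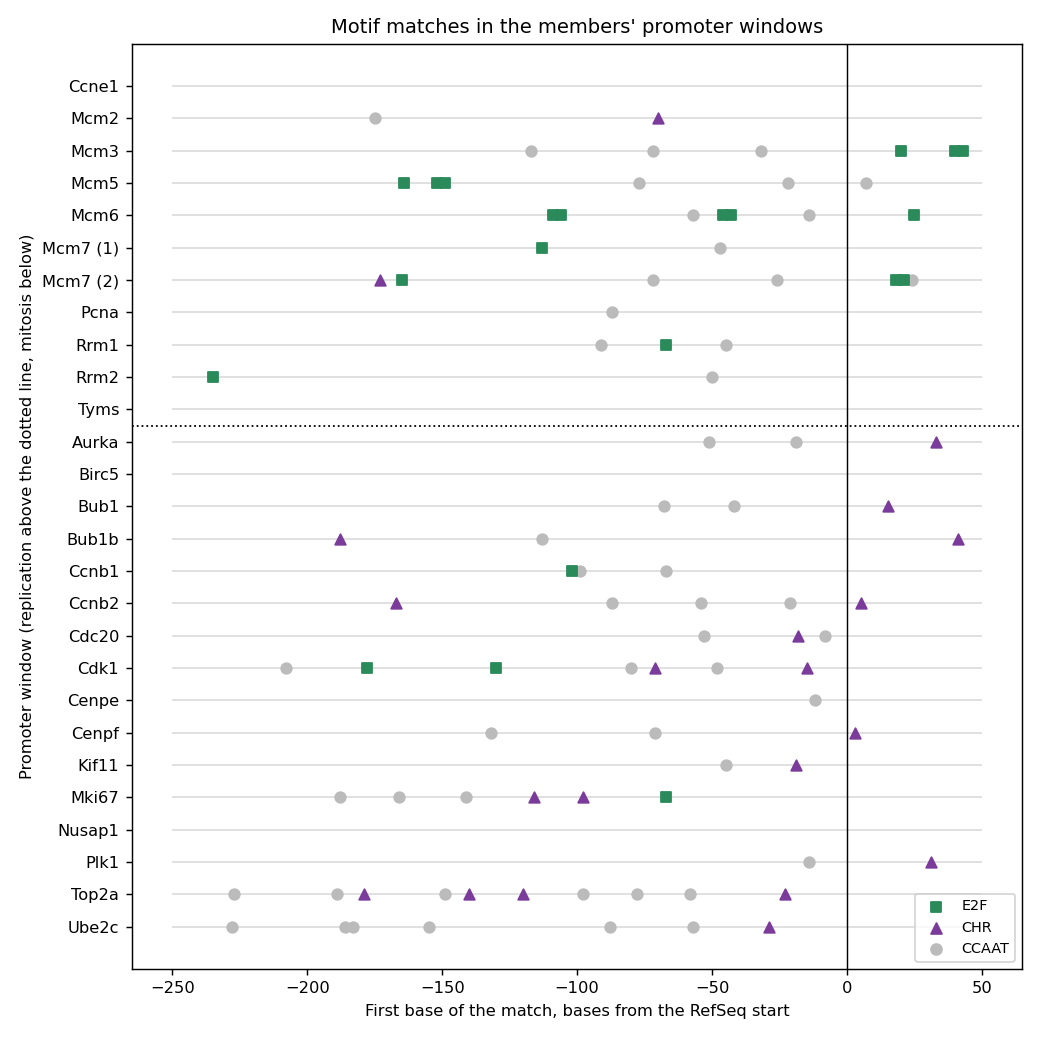
Positions of E2F (squares), CHR (triangles) and CCAAT (circles) matches in 27 promoter windows, with distance from the RefSeq start in bases on the x axis and replication genes above the dotted line. CHR matches fall in 12 of the 16 mitosis windows and E2F matches in 7 of the 11 replication windows.

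Depth was similar across libraries, with total counts from 10221170 in NC 1 to 13806885 in NC 2, and TMM scaling factors ran from 0.865 to 1.137. Defining markers of lavage cells were present in every library: the 10 mature neutrophil genes summed to 7272 to 12435 CPM (read counts scaled to the library total) in NC and to 5925 to 11385 CPM in AX, and genes of neutrophil precursors, monocytes, macrophages and B cells were detected too. NC 1 and AX 6 stood apart with the highest levels of mesothelial markers (1204 and 2261 CPM, against 107 to 372 CPM in the other libraries) and stromal markers (1382 and 2633 CPM, against 230.2 to 734.8 CPM). They were also the highest for erythroid precursor markers (1112 and 1759 CPM, against 210.2 to 631 CPM) and for gut epithelium markers (1169 and 510.02 CPM, against 16.97 to 442 CPM). Most of the erythroid precursor sums of NC 1 and AX 6 came from the globin genes Hbb-bs (496 and 871 CPM) and Hba-a1 (204 and 377 CPM). Whether precursors themselves were present was not tested. In RNA from mixed cells, fewer cells of a type and less RNA per cell cannot be told apart.

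The 33 genes were detected in every library but were a small part of the RNA. Summed over the 33 genes, CPM came to 443, 391, 306, 239.7 and 568 CPM in NC 1 to NC 5 and to 298, 390, 367, 307 and 214 CPM in AX 6 to AX 10. NC 5 was the highest library and AX 10 the lowest, and the groups overlapped. Of the 33 genes, 23 had their highest CPM in NC 5, while 11 had their lowest in AX 10, 7 in AX 6 and 7 in NC 4. Every gene varied between libraries by more than counting noise, with a chi-square per degree of freedom from 4.51 (Bub1) to 84.0 (Stmn1), where pure counting noise gives about 1. The ratio of the highest to the lowest library had a median of 4.06 over the 33 genes.

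**Figure D2:**
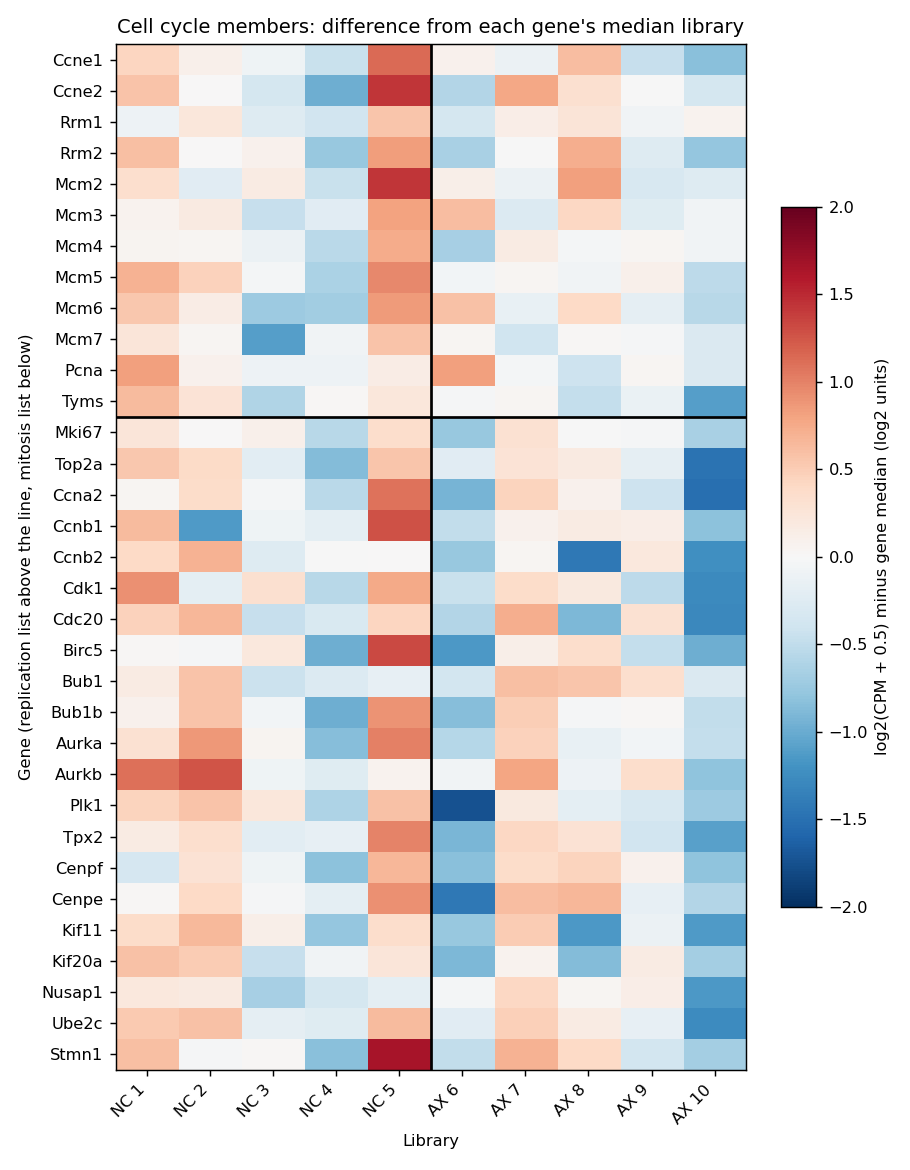
Heat map of the 33 genes (rows; replication genes above the line) in the 10 libraries (columns; NC left, AX right), coloured by log2(CPM + 0.5) minus the gene's median over the libraries. NC 5 is red for most rows, and NC 4, AX 6 and AX 10 are mostly blue, AX 6 mainly below the line.

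Between genes, levels can be compared only per length, for which the deposited FPKM values were used. Pcna, the sliding clamp that holds polymerases on DNA, had the highest median FPKM over libraries, 10.9 (range 8.10 to 19.3). It was followed by the ribonucleotide reductase subunit Rrm1 at 4.91 (3.74 to 7.27), the microtubule regulator Stmn1 at 4.63 (2.50 to 14.85), the ubiquitin-conjugating enzyme Ube2c at 4.33 (1.69 to 6.78) and the proliferation marker Mki67 at 4.22 (2.49 to 5.38). These neighbours overlap in their ranges, except that Pcna lay above Rrm1, Ube2c and Mki67 in range. Cenpf at 0.242 and the E-type cyclin Ccne2 at 0.184 had the lowest. The median of the 12 replication genes was 2.20 FPKM and that of the 21 mitosis genes 1.24 FPKM.

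The Pcna level has a limit of its own. The transcript of the pseudogene Pcna-ps2 is 99.2% identical to that of Pcna over 781 bases, and it was given 3736 counts over all libraries beside 5132 for Pcna. Pcna-ps2 stood at 45.2 CPM in NC 1 and 42.9 CPM in AX 6, and at 22.8 to 31.7 CPM in the other libraries, so its high libraries were those of Pcna. Copies over 95% identical across at least 400 bases also exist for Ccnb1, Mcm7, Rrm2, Stmn1 and Tyms, under names for which no counts were used here. Reads may have been shared between such copies.

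Among the replication genes, the G1/S cyclins had low median levels per length, 0.89 FPKM for Ccne1 and 0.184 FPKM for Ccne2. Ccne1, which activates CDK2 at the entry into S phase, stood at 4.70, 3.62, 3.13, 2.32 and 7.89 CPM in NC 1 to NC 5 and at 3.56, 3.03, 5.42, 2.30 and 1.64 CPM in AX 6 to AX 10. NC 5 and AX 8 were the highest of their groups, and the groups overlapped. Its log2 fold change, AX against NC by edgeR, was -0.35 with a standard error of 0.44. Its paralog Ccne2 had only 6 to 54 counts per library. The genomic span of Ccne2 shares 5622 bases with Ints8 on the other strand, and reads of the pair cannot be told apart without knowing the strand used in counting.

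The 6 subunits of the MCM helicase, which unwinds DNA at the fork, all had their highest value in NC 5. Mcm2 stood at 13.3, 8.91, 11.8, 7.60 and 28.97 CPM in NC 1 to NC 5 and at 11.5, 9.60, 18.9, 8.30 and 8.69 CPM in AX 6 to AX 10. NC 5 was far above the other NC libraries and AX 8 the highest of AX. Mcm5 stood at 10.6, 8.91, 6.18, 3.92 and 12.9 CPM in NC and at 6.09, 6.57, 6.05, 6.89 and 4.304 CPM in AX. Its AX values lay within the NC range, and each was below the NC median of Mcm5, which had the lowest fitted value of the replication genes, a log2 fold change of -0.44 ± 0.31 (SE). In Mcm6 and Mcm3, AX 6 came next after NC 5. Mcm6 had 24.4 CPM in AX 6 and 29.6 CPM in NC 5, against 9.56 to 23.6 CPM elsewhere. Mcm3 had 27.2 CPM in AX 6 and 31.1 CPM in NC 5, against 12.7 to 23.6 CPM elsewhere. The log2 fold changes of Mcm3, Mcm4, Mcm6 and Mcm7 lay between -0.14 and 0.09, and those of Mcm3 and Mcm6 (0.09 and 0.02) turned to -0.0031 and -0.08 when scaled by library totals alone.

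Pcna and the enzymes of nucleotide supply did not share one pattern. Pcna stood at 67.6, 40.4, 35.4, 35.4 and 42.2 CPM in NC 1 to NC 5 and at 67.5, 37.2, 28.4, 39.1 and 31.1 CPM in AX 6 to AX 10. NC 1 and AX 6, the libraries with the highest mesothelial, stromal, erythroid precursor and gut epithelium markers, were the highest of their groups and nearly equal. The part of those cells in the Pcna level was not tested. The log2 fold change of Pcna was -0.03 ± 0.27 (SE), and -0.19 without NC 1 and AX 6. Rrm1, the large ribonucleotide reductase subunit, had the smallest ratio of highest to lowest library, 1.94. It ran from 14.96 CPM (NC 4) to 29.1 CPM (NC 5). Its log2 fold change was 0.04 ± 0.24 (SE) and became -0.026 with library totals alone. Its small partner Rrm2, the subunit made in S phase, ran from 5.32 CPM in AX 10 to 17.2 CPM in NC 5. Tyms, thymidylate synthase, stood at 4.66 ± 1.49 CPM (SD, n = 5) in NC and 3.28 ± 1.06 CPM in AX.

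Among the mitosis genes, the markers of late S and G2 phase overlapped widely between the groups. Mki67, a coat protein of mitotic chromosomes, stood at 50.3, 42.7, 45.6, 28.8 and 54.2 CPM in NC 1 to NC 5 and at 25.1, 52.9, 42.4, 42.0 and 26.8 CPM in AX 6 to AX 10. Top2a, which untangles replicated DNA, stood at 30.1, 26.9, 17.7, 11.0 and 30.4 CPM in NC and at 17.6, 24.8, 23.4, 18.1 and 7.04 CPM in AX. NC 4 and AX 10 were low for both genes, AX 6 was the lowest library for Mki67, and the groups overlapped for both. Ccna2, the A-type cyclin of S and G2, ran from 4.85 CPM in AX 10 to 31.7 CPM in NC 5; its span shares 863 bases with Exosc9 on the other strand.

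Ccnb2 and Plk1, which act at mitotic entry, had the lowest fitted values of the 33 in AX. Ccnb2 (mm10 chr9:70407689-70421554, minus strand), a cyclin partner of CDK1, stood at 8.02, 9.92, 4.91, 5.92 and 5.99 CPM in NC 1 to NC 5 and at 3.32, 6.15, 1.90, 6.97 and 2.27 CPM in AX 6 to AX 10. AX 6, AX 8 and AX 10 lay below every NC library, while AX 7 and AX 9 lay among them. The log2 fold change of Ccnb2 was -0.72 ± 0.34 (SE), with p = 0.0563 by edgeR, adjusted p = 1.0, and p = 0.0873 for the mean CPM in an exact permutation test, two-sided. Plk1 (mm10 chr7:122159439-122169873, plus strand), the polo-like kinase that drives mitotic entry, stood at 5.38, 5.94, 4.57, 2.32 and 5.99 CPM in NC and at 0.791, 4.46, 3.25, 2.96 and 2.11 CPM in AX. Each AX value of Plk1 was below the NC median, and the lowest, AX 6, rested on 10 counts. Its log2 fold change was -0.78 ± 0.42 (SE), the lowest of the 33, with p = 0.0863 by edgeR, adjusted p = 1.0, and an exact permutation p of 0.0556, the smallest of the 33; the design allows 0.00794 at the least.

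The other entry genes peaked in NC 5 or NC 1. Cdk1, the kinase of mitosis, ran from 2.74 CPM in AX 10 to 14.3 CPM in NC 1, with 9.455 ± 4.04 CPM (SD, n = 5) in NC and 6.20 ± 2.80 CPM in AX. Ccnb1 ran from 1.09 CPM in NC 2 to 7.89 CPM in NC 5; without NC 5 its log2 fold change moved from -0.48 to 0.0035. The spindle pole kinase Aurka stood at 7.41 ± 3.50 CPM in NC and 4.99 ± 1.66 CPM in AX, with a log2 fold change of -0.51 ± 0.37 (SE).

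Spindle and checkpoint genes had fitted values on both sides of 0. Kif11, the motor that pushes the spindle poles apart, stood at 6.65, 8.18, 5.50, 2.72 and 6.59 CPM in NC 1 to NC 5 and at 2.77, 7.33, 1.99, 4.60 and 2.03 CPM in AX 6 to AX 10. AX 6, AX 8 and AX 10 were low and AX 7 was among the high NC libraries. Cenpe, a kinetochore motor, held 1.66 CPM (21 counts) in AX 6 and 3.37 to 10.4 CPM elsewhere. Tpx2, which nucleates spindle microtubules, ran from 3.91 CPM in AX 10 to 18.2 CPM in NC 5, and the kinetochore protein Cenpf from 2.21 CPM in AX 6 to 7.11 CPM in NC 5. The log2 fold change was -0.47 ± 0.38 (SE) for Tpx2 and -0.03 ± 0.41 for Cenpf. Bub1, a kinase of the spindle checkpoint, and the spindle protein Nusap1 were the mitosis genes with higher fitted values in AX, log2 fold changes of 0.31 ± 0.32 and 0.18 ± 0.33 (SE). The checkpoint partner Bub1b had -0.34 ± 0.43 (SE). Stmn1 reached 43.6 CPM in NC 5, against 7.36 to 22.2 CPM in the other libraries.

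The genes of mitotic exit and cytokinesis were lowest in AX 10 (Cdc20, Ube2c and Aurkb) or AX 6 (Birc5 and Kif20a). Ube2c and Cdc20, an enzyme and an activator of the anaphase-promoting complex that destroys cyclin B, were lowest in AX 10, at 4.70 and 1.25 CPM. Their ranges in the other libraries were 9.997 to 18.8 CPM and 1.80 to 6.57 CPM. Birc5 (survivin) and Aurkb form the chromosomal passenger complex. Birc5 reached 36.3 CPM in NC 5 and was lowest in AX 6 at 6.17 CPM, whereas Aurkb peaked in NC 2 at 6.16 CPM and was at 2.43 CPM in NC 5. Kif20a, a motor of cytokinesis, had a log2 fold change of -0.67 ± 0.34 (SE) on 10 to 43 counts per library, and its span shares 2315 bases with Cdc23 on the other strand, which held 2229 counts in all beside 239 for Kif20a.

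**Figure D3:**
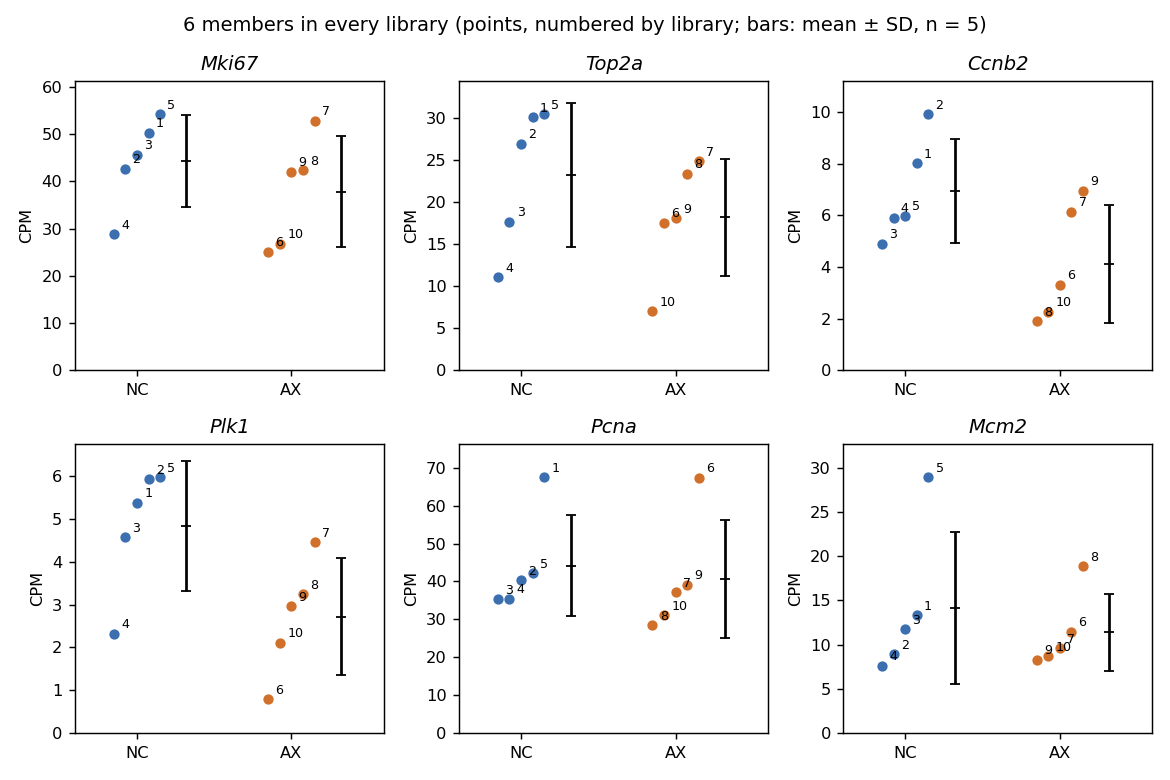
CPM of 6 genes in each library, with points numbered by library and the mean ± SD of 5 libraries beside them; y axes start at 0. For Plk1 and Ccnb2 the AX points reach lower than the NC points but overlap them, Pcna shows NC 1 and AX 6 apart, and Mcm2 shows NC 5 apart.

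The comparison of AX with NC asked whether the drug went with a change in these genes, and no gene passed the test. Of the 33 genes, 0 had an adjusted p under 0.05 by the quasi-likelihood test of edgeR, as for 0 of all 12264 genes tested (0%). At an unadjusted p under 0.05 there were 0 of the 33, beside 0.921% of all genes tested. DESeq2 and limma-voom called 0 adjusted and 1 unadjusted each, Ccnb2, beside 1.57% and 1.08% of all genes, and limma-voom with library quality weights gave 0 at either level, beside 3.1%. The groups did not separate without overlap for any of the 33, beside 0.0978% of all genes.

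Fitted values nevertheless lay mostly below 0. They were lower in AX for 28 of 33 genes, 9 of 12 of replication and 19 of 21 of mitosis, beside 46.4% of all genes tested. The median log2 fold change was -0.35 over the 33, -0.19 over replication and -0.47 over mitosis genes, beside 0.02 over all genes. With limma-voom and library quality weights 23 of 33 were lower, beside 49.9%, and the medians were -0.12 over the 33, -0.14 over replication and -0.08 over mitosis genes, so the order of the 2 lists turned. With library totals alone, which put 56.8% of all genes below 0, the count was 31 of 33 and the medians were -0.42 and -0.04. Precision was limited, with a median standard error of 0.38, and all 33 intervals of 95% included 0. The 33 genes were measured in the same libraries, so the count does not stand for 33 independent measurements.

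The fitted values moved with which libraries were kept. Without NC 5, the highest NC library for most of these genes, 19 of 33 were below 0, beside 46.1% of all genes, and the median over the 33 was -0.039, with 0.13 for replication and -0.18 for mitosis. Without AX 10, the lowest AX library, the count was 26, beside 49.7%, and the median -0.18. Without NC 4, the lowest NC library, it was 30 (beside 48.2%) and the median -0.51. It was 26 without AX 7 (beside 46%) and 27 without AX 9 (beside 46.5%).

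Pairs of libraries were also left out, chosen after the data were seen. Leaving out NC 5 and AX 10, the highest NC and the lowest AX library by the summed level of these same genes, by its construction moves these values up, and leaving out NC 4 and AX 7, the lowest NC and the highest AX library, moves them down, so neither is a test. The first gave 13 of 33 below 0 (beside 47.7%) and a median of 0.06, with 0.19 for replication and -0.01 for mitosis. The second gave 30 of 33 (beside 46.5%) and a median of -0.62, with -0.31 for replication and -0.83 for mitosis. Under the first, Plk1, Ccnb2, Kif20a and Kif11 were at -0.59, -0.60, -0.55 and -0.41. With all 10 libraries these genes had the lowest fitted values of the 33 (-0.78, -0.72, -0.67 and -0.63), so their values here are no test either. Without NC 1 and AX 6, picked for their mesothelial and stromal markers, the count was 29 of 33, beside 49.2%, and the median -0.28. In none of these fits did any of the 33 have an adjusted p under 0.05 by edgeR.

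**Figure D4:**
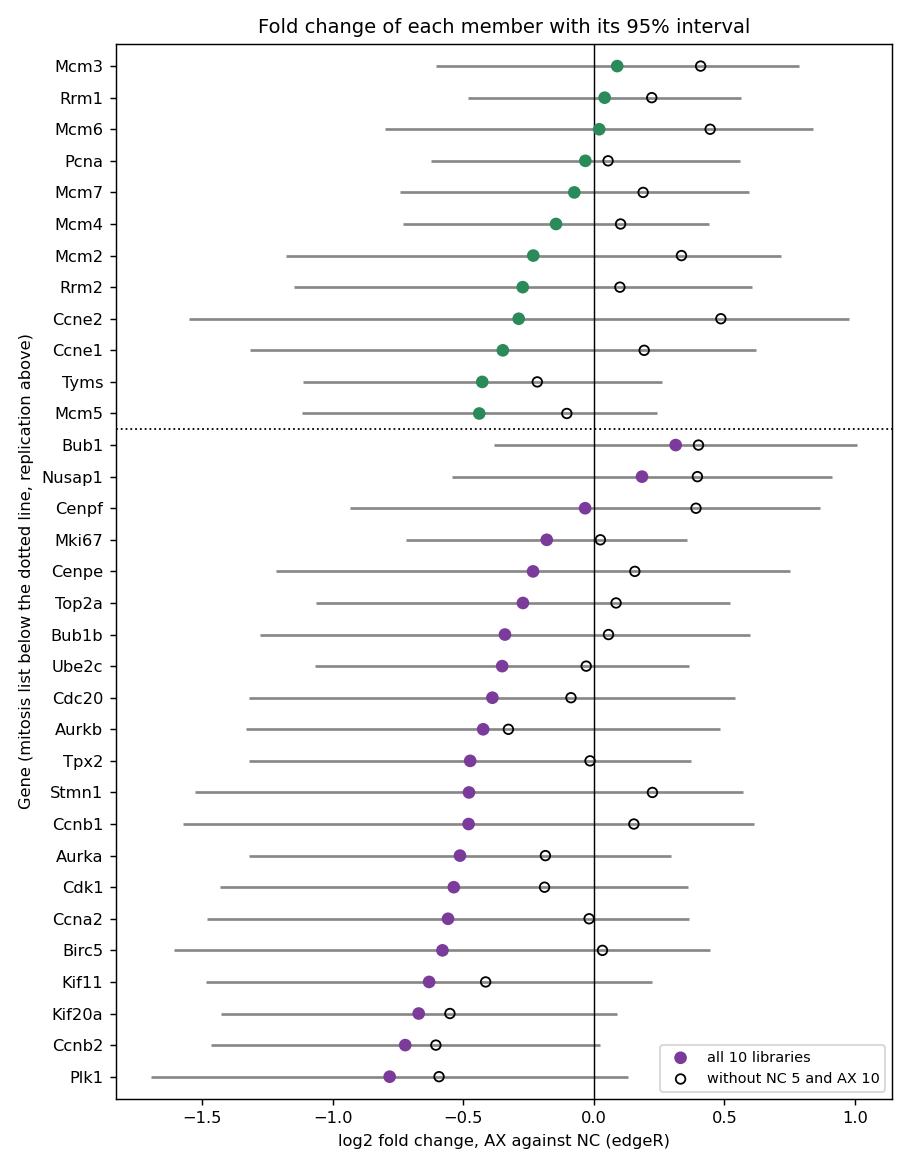
log2 fold change of each gene, AX against NC, by edgeR (filled points, with 95% intervals as bars) and the same without NC 5 and AX 10, libraries chosen on these values (open circles), for replication genes above and mitosis genes below the dotted line. All 33 bars cross 0. The open circles lie to the right, as leaving out the highest NC and the lowest AX library makes them do.

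Markers of other cells were set beside these libraries, and 0 genes of any list passed the test between the groups. Fitted values were higher in AX for 8 of 8 tested mesothelial markers (median log2 fold change 1.02), 8 of 8 stromal (0.55), 8 of 9 large peritoneal macrophage (0.86) and 5 of 6 erythroid precursor markers (0.40). They were lower in AX for 9 of 9 gut epithelium markers (-0.94), 6 of 9 neutrophil precursor (-0.23), 6 of 8 B cell (-0.19) and 4 of 7 T and NK cell markers (-0.17). Over all genes tested, 46.4% had lower fitted values. By summed CPM, the AX median was below the NC median for mesothelial (231 against 275 CPM), erythroid precursor (402 against 577 CPM) and large peritoneal macrophage markers (197 against 207 CPM). It was above the NC median for stromal markers (535 against 352 CPM). AX 6 was the highest library for mesothelial, stromal and erythroid precursor markers. T and NK cell markers (9 genes, 7 passing the filter, none at 0 in all libraries) summed to 28.6 CPM in NC 5 and 22.6 CPM in AX 8, and to 9.25 to 17.6 CPM elsewhere. Neutrophil precursor markers (11 genes, 9 passing the filter, none at 0 in all libraries) ranged from 546 to 2924 CPM in NC and from 1176 to 2579 CPM in AX. They were lowest in NC 4, followed by AX 8 and AX 10 at 1260 CPM, and stood at 1927 CPM in NC 5. Most of these sums came from Chil3 and Ngp, with means of 937 and 766 CPM in NC and 1077 and 613 CPM in AX. The sums therefore say little about the other genes of the list or about dividing precursors. B cell markers (8 genes, all passing) ranged from 69.1 to 257 CPM in NC and from 96.96 to 257 CPM in AX. The part of these cells in the cell cycle levels was not tested.

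Replication and mitosis were also compared within each library, as the mean log2(CPM + 0.5) of each list. The replication level was 3.70, 3.40, 2.99, 2.85 and 4.10 in NC 1 to NC 5 and 3.29, 3.29, 3.51, 3.17 and 2.87 in AX 6 to AX 10. The mitosis level was 3.13, 3.13, 2.67, 2.28 and 3.41 in NC and 2.08, 3.18, 2.72, 2.71 and 1.85 in AX. Both lists were highest in NC 5. AX 6 was in the middle for replication but next to lowest for mitosis, and AX 10 was lowest for mitosis.

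The gap between the lists, replication minus mitosis, was compared between libraries only, since gene length and the choice of genes set its zero. It was 0.56, 0.27, 0.32, 0.57 and 0.68 in NC 1 to NC 5 and 1.20, 0.11, 0.79, 0.46 and 1.02 in AX 6 to AX 10. AX 6, AX 8 and AX 10 lay above every NC library and AX 7 below every one. The mean was 0.72 ± 0.44 (SD, n = 5) in AX and 0.48 ± 0.18 in NC, so the groups overlapped and the spread was wider in AX. In AX 6, 0 of 21 mitosis genes were above their own median over the libraries, but 6 of 12 replication genes were; in AX 7 it was 21 of 21 and 5 of 12. The low mitosis genes of AX 6 came with its high mesothelial, stromal, erythroid precursor and gut epithelium markers. NC 1 shared these markers, while 20 of 21 mitosis genes there were above their medians. In NC 4 and in AX 10, 0 of 21 were above. The mesothelial, stromal, erythroid precursor and gut epithelium sums were 275, 230, 210 and 442 CPM in NC 4. In AX 10 they were 107, 329, 283 and 17.5 CPM. The part of those cells was not tested.

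**Figure D5:**
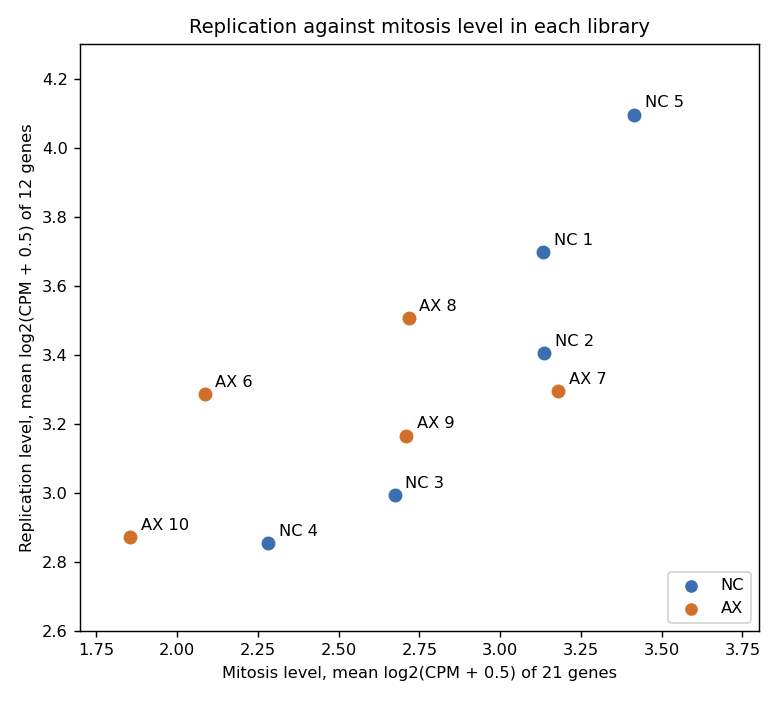
Mean log2(CPM + 0.5) of 12 replication genes (y) against that of 21 mitosis genes (x), 1 point per library. NC 5 is highest on both axes, AX 10 and AX 6 are lowest on the mitosis axis, and AX 6 is in the middle of the replication axis.

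Further genes of the cell cycle gave no call either. Among 30 tested genes of origin licensing and the replication fork, 0 passed and 21 had lower fitted values in AX (median log2 fold change -0.14), beside 46.4% of all genes. Without NC 5 it was 16 of 30 (median -0.02). Among 39 tested genes of the spindle, kinetochore and cytokinesis, 0 passed and 29 were lower (median -0.24), and without NC 5 it was 24 (median -0.11). Among 11 of nucleotide supply and chromatin assembly 0 passed and 8 were lower (median -0.30), and without NC 5 it was 3 (median 0.09). With quality weights the medians of the 3 lists were -0.14, -0.01 and -0.0039. Melk, a kinase of dividing cells, stood at 3.34 ± 1.56 CPM (SD, n = 5) in NC and 1.61 ± 0.78 CPM in AX, with p = 0.0361 by edgeR, adjusted p = 1.0 and an exact permutation p of 0.0476. Melk was named for the smallest unadjusted p of the spindle, kinetochore and cytokinesis list, so these p-values are no independent support. It was the only 1 of the 39 genes with an unadjusted p under 0.05 by edgeR, beside 0.921% of all genes tested.

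Genes that act before S phase gave no call. Of 18 tested G1 cyclins and members of the E2F and retinoblastoma families, 0 passed and 14 were lower (median -0.08), beside 46.4% of all genes. Without NC 5 it was 9 (median 0.02), beside 46.1%. E2f7, a repressor of the E2F program that is itself made in S phase, stood at 1.76, 1.16, 1.86, 0.800 and 1.82 CPM in NC 1 to NC 5 and at 0.712, 0.421, 0.903, 0.963 and 0.391 CPM in AX 6 to AX 10. NC 4 was the one NC library among the AX values, and the log2 fold change was -1.06 ± 0.40 (SE), with p = 0.0232 and adjusted p = 1.0 by edgeR and an exact permutation p of 0.0238. E2f7 was named for the smallest unadjusted p of its list in these libraries, so these p-values are no independent support. It was the only 1 of the 18 genes with an unadjusted p under 0.05 by edgeR, beside 0.921% of all genes tested. Its CPM was low in every library. Of 9 tested CDK inhibitors and genes of quiescence, 0 passed, 7 were higher and 2 lower (median 0.15), beside 46.4% of all genes lower. Without AX 8, 6 of 10 tested were lower (median -0.03). Cdkn1b, which encodes the CDK inhibitor p27, held 6.68 CPM in NC 5, the library with the highest cell cycle level, and 53.5 to 155 CPM in the other libraries. It held 146 CPM in AX 7, the highest AX library by summed level of the 33 genes, and 110 CPM in AX 10, the lowest. Any link between Cdkn1b and the cell cycle level was not tested.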

How the data were processed

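PolyA RNA of 10 libraries (5 NC, 5 AX) was sequenced. The submitters' processing notes name HISAT2 2.0.4 and mm10. How reads were counted, on which annotation and with which strand setting, is not given in the sources used here. Per the file headers, the authors deposited raw read counts and FPKM for each gene. Counts were divided by library totals for CPM and tested across all genes with edgeR 4.0.16 (quasi-likelihood, TMM factors, default expression filter, Benjamini-Hochberg adjustment, threshold 0.05, NC and AX libraries only, no covariates) in R 4.3.3. FPKM served only to compare levels between genes. A pseudocount of 0.5 CPM was used for list levels. Mean CPM of single genes was compared by exact two-sided permutation tests (scipy 1.17.1). Alternatives were DESeq2 1.42.0, limma-voom 3.58.1 with and without quality weights, other scaling and filters, and leaving out libraries. The test was tested on simulated data. Near-identical transcripts were sought with BLAST+ 2.17.0 against GENCODE transcripts. All 33 genes could be named; of other cell cycle lists up to 3 genes with the smallest unadjusted p, and of marker lists those with the highest mean. The 33 genes and the lists were chosen with earlier results of these data known.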

Additional observations from a re-analysis of the deposited data

Results flagged for a closer look

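In groups of 5 libraries, the highest or lowest value was compared with its neighbours by the ratio of gap to range. Of 74 groups examined, 3 held a library that stood apart. Chance gives about 1 in 20, so 3 of 74 is no more than chance gives. The groups share the same libraries and are not independent. Mcm2 stood at 28.97 CPM in NC 5, against 7.60 to 13.3 CPM in the other NC libraries. Pcna stood at 67.6 CPM in NC 1, against 35.4 to 42.2 CPM in the other NC libraries. Pcna stood at 67.5 CPM in AX 6, against 28.4 to 39.1 CPM in the other AX libraries.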

How the results depend on the processing

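No paired analysis was possible because NC is numbered 1 to 5 and AX 6 to 10, so the groups share no number. In every alternative run, 0 of the 33 genes had an adjusted p under 0.05, by edgeR, DESeq2 or limma-voom. Over all genes this count was 0 to 1 when 1 library was left out, the 1 being without NC 3. At an unadjusted p under 0.05, DESeq2 and limma-voom each gave 1 of the 33, and leaving out 1 library gave 0 to 3: Mcm5, Aurka and Plk1 without NC 4 (0.795% of all genes), Ccnb2, Plk1 and Kif11 without AX 7 (1.16%), and Ccnb2 and Kif20a without AX 9 (1.16%). Over all genes the unadjusted count was 113, and 193 with DESeq2, 380 with quality weights, 313 with no filter, 433 without NC 1, 381 without AX 6 and 319 without both. Leaving out 1 library at a time, fitted values were lower in AX for 19 to 30 of the 33 genes, and the median log2 fold change ran from -0.51 to -0.039 (replication -0.34 to 0.13, mitosis -0.67 to -0.18). The list levels, mean log2(CPM + 0.5) scaled by library totals without TMM factors, were also compared with 1 library left out. Their difference AX minus NC ran from -0.32 to -0.012 for replication and from -0.59 to -0.26 for mitosis. For the gap between the lists it ran from 0.11 to 0.39. Leaving out NC 5 and AX 10, NC 1 and AX 6, or NC 4 and AX 7 was chosen after seeing the data. The first gave 13 of 33 lower, beside 47.7% of all genes. The last gave 4 of 33 at an unadjusted p under 0.05 by edgeR (Ccnb2, Aurka, Plk1 and Kif11), beside 131 of 12307 genes tested. The choice of libraries builds in both shifts.

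The fitted sign changed in at least 1 alternative for 18 of the 33 genes. For Rrm2, Top2a and Birc5 it changed only without NC 5 and AX 10, a choice of libraries that moves these values up by construction. The cause of changes in the other fits was not tested. With library totals alone the log2 fold changes were -0.026 for Rrm1, -0.0031 for Mcm3 and -0.085 for Mcm6. With quality weights they were 0.54 for Ccne2, -0.19 for Mcm3, 0.086 for Mcm4, -0.019 for Mcm6, 0.074 for Mki67, 0.15 for Ccnb1, 0.17 for Bub1b, 0.23 for Cenpf and 0.052 for Stmn1. Without NC 5 and AX 10 they were 0.19 for Ccne1, 0.49 for Ccne2, 0.10 for Rrm2, 0.34 for Mcm2, 0.10 for Mcm4, 0.19 for Mcm7, 0.054 for Pcna, 0.025 for Mki67, 0.085 for Top2a, 0.15 for Ccnb1, 0.033 for Birc5, 0.056 for Bub1b, 0.39 for Cenpf, 0.16 for Cenpe and 0.22 for Stmn1. Without NC 1 and AX 6 they were -0.14 for Mcm3, -0.10 for Mcm6 and 0.00061 for Cenpf. Without NC 4 and AX 7 they were -0.048 for Rrm1 and -0.062 for Mcm6. Leaving out 1 library at a time gave -0.73 to 0.0035 for Ccnb1, -0.71 to 0.025 for Ccne1, -0.55 to 0.37 for Ccne2, -0.56 to 0.030 for Cenpe, -0.29 to 0.24 for Cenpf, -0.57 to 0.25 for Mcm2, -0.091 to 0.36 for Mcm3, -0.28 to 0.11 for Mcm4, -0.17 to 0.32 for Mcm6, -0.25 to 0.15 for Mcm7, -0.34 to 0.12 for Pcna, -0.088 to 0.24 for Rrm1 and -0.70 to 0.090 for Stmn1. Depth limits the 8 genes that had a library with fewer than 20 counts.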
